A study of Mus musculus with 172 samples.

Results

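The response of the liver to sleep loss was compared with that of the cerebral cortex, gene by gene, in mice of the BXD panel, a set of inbred lines derived from crosses of C57BL/6J and DBA/2J. The unit of the comparison, called a pool here, was 1 line or cross, or 1 of 2 collections of a parental strain. Each pool had 4 libraries, from cortex and liver after sleep deprivation (SD) and from both tissues of undisturbed controls (Ctr). SD and Ctr mice were different animals, and the RNA of the mice of a line was mixed within each condition and tissue. For each pool the change in cortex (SD minus Ctr) was taken from the change in liver, and this tissue difference was tested against 0. The tables hold 172 libraries as log2 CPM (counts scaled by the size of the library, with a small count added before the logarithm), and the 4 libraries of each of 39 pools were used. The pools are 33 BXD/RwwJ lines, C57BL/6J and DBA/2J with 2 pools each from the start and the end of the collection, and 1 pool of each reciprocal F1 cross (C57/BL/J x DBA/2J F1 and DBA/2J x C57/BL/J F1). The 16 libraries of 4 BXD/TyJ lines (05, 29, 29t and 32) were left out of the fit and were used as other pools in which to look at the same measure. All 12695 genes listed in the 4 tables were tested, out of 16308 listed in any of them, and 2201 genes listed in cortex alone and 1412 listed in liver alone have no tissue difference.

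All mice were males of 11 to 14 weeks, housed singly with free access to food. SD mice were kept awake by gentle handling in their home cage for 6 h from light onset (ZT0, the start of the light phase), Ctr mice stayed undisturbed in another room, and both were killed at ZT6. The labels give a line, strain or cross for each library and name no altered gene. Pools differ in the mixture of the alleles of both parental strains, and also in their mice, time of collection and libraries. A pool holds 1 RNA mixture per condition, so that the error given here is the spread over pools, with the variation among mice of a line averaged into it. The parts of genotype, mice, time of collection and library in this spread are not separated. The 2 pools of C57BL/6J and the 2 of DBA/2J share their genotype. Per the paper's methods, BXD79, BXD85 and BXD101 bred poorly, and their pools held fewer mice than those of the other lines. SD and handling, the room and wakefulness in the rest phase go together in this design and cannot be told apart.

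Sleep loss can act on the cortex and the liver by different routes, and none of these was measured here. In cortex, neurons stay active through the hours of the day in which a mouse sleeps most, and activity-dependent transcription factors such as Fos, Egr1 and Nr4a1 are known to follow neuronal activity. In liver, the hours after light onset are those in which feeding stops and the tissue turns from lipid synthesis to mobilisation, under the joint control of insulin, glucocorticoids, body temperature and the circadian clock. Being kept awake raises corticosterone, temperature and, where food is at hand, food intake, and these signals reach both tissues through the blood.

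The recovered counts, summed over the genes listed for a tissue, were larger in cortex, with medians of 22170272 reads in Ctr and 22713295 in SD, than in liver, with 6752508 and 6563242. Reads outside the listed genes are not in these sums, so they are not the number of reads sequenced. The median standard error of a change was 0.021 in cortex, 0.037 in liver and 0.046 for the tissue difference, all on the log2 scale, so that a small change was easier to call in cortex. The tissues matched their labels. Alb (albumin) was not listed in cortex, while its median in liver Ctr was 9.07 log2 CPM, and the neuronal genes Snap25, Slc17a7 and Camk2a were not listed in liver. Libraries of the same pool also matched by genotype: in 5 of 6 pairs of groups each of the 39 pools correlated best with its own genotype, and in the pair of cortex Ctr and liver SD 38 did. For the genes called below, the share whose difference in a single pool had the sign of the mean was 65.9% in BXD89, 70.9% in BXD70 and higher in the other 37 pools, up to 87.7% (median of all pools 82.1%). Without BXD89 and BXD70 the number of genes called was 7529.

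**Figure D1:**
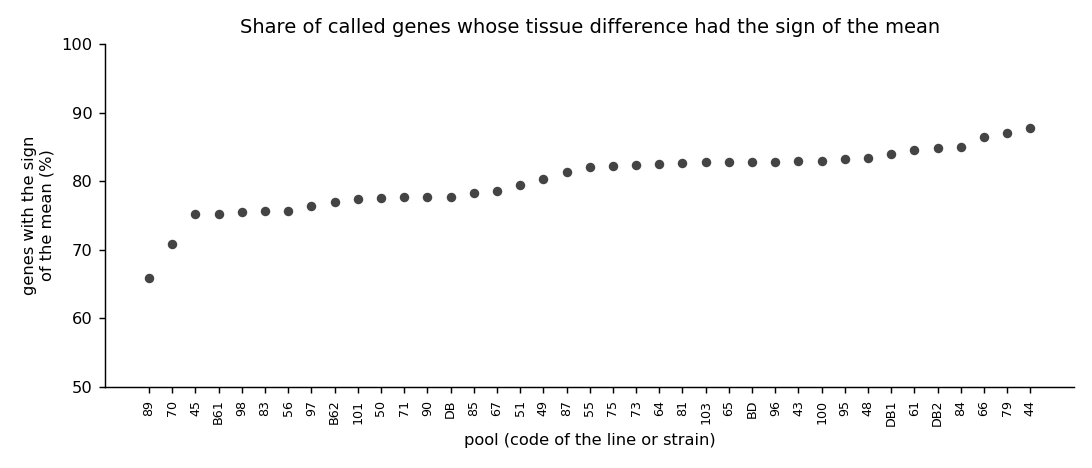
Share of the genes with a called tissue difference whose difference in a single pool had the sign of the mean over 39 pools (vertical axis, percent), by pool (horizontal axis, codes of the line or strain, in rising order). BXD89 (65.9%) and BXD70 (70.9%) lie below all other pools, and the highest share is 87.7%.

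The response differed between the tissues in 7312 of 12695 genes, 57.6% of those tested (limma, adjusted p under 0.05). The change in liver was the higher of the pair in 3551 (28.0%) and the lower in 3761 (29.6%). Most of these differences were small. Their median size was 0.23 on the log2 scale, 1166 genes (9.18% of those tested) differed by at least 0.5 and 180 by at least 1. In 312 genes the difference had the same sign in 39 of 39 pools, above 0 in 115 and below 0 in 197. Taken alone, the response to SD was called for 9763 genes in cortex (76.9%), of which 4835 rose (38.1%) and 4928 fell (38.8%), and for 7012 genes in liver (55.2%), of which 3462 rose (27.3%) and 3550 fell (28.0%). The number called is read beside the depth, since the liver libraries held fewer reads counted in listed genes.

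Genes were sorted into classes from the 3 calls together, because a call in 1 tissue alone does not show that the tissues differ. Shared genes were called in both tissues with the same sign, and numbered 3923 (30.9%), of which 1949 rose and 1974 fell. In 2007 of them (15.8%) the tissue difference was not called, in 1071 (8.44%) the change was larger in liver and in 845 (6.66%) it was larger in cortex. Opposite genes were called in both tissues with different signs and numbered 1648 (13.0%), 789 with a rise in liver and a fall in cortex and 859 the reverse. Cortex-limited genes, called in cortex and for the tissue difference but not in liver, numbered 2380 (18.7%), and liver-limited genes, defined likewise, 1155 (9.10%). A further 1956 genes were called in 1 tissue without a called tissue difference and stay unresolved, 213 differed without fitting a class, and 1420 were called nowhere. The classes depend on the pairing of libraries within a pool: without it, 525 genes were shared with a larger change in liver, 1059 were opposite and 1776 were liver-limited. The classes were made from these same values, so the sizes given for their members describe them and are no further test.

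**Figure D2:**
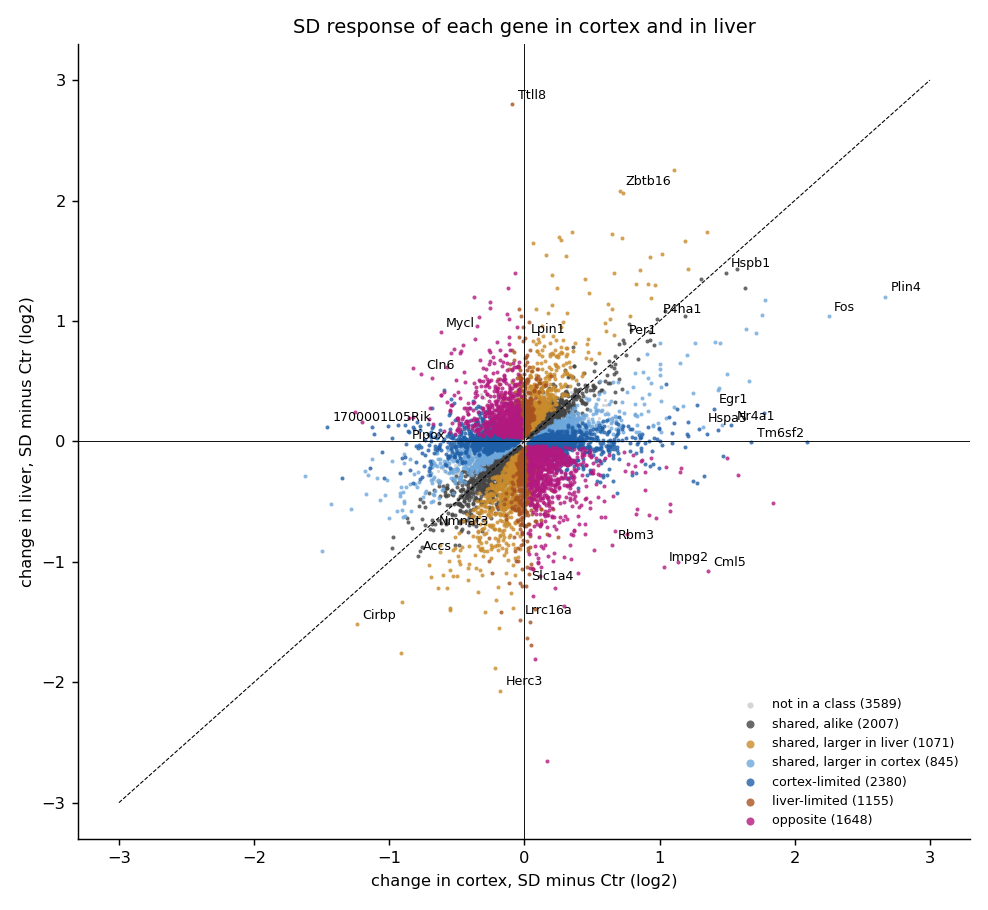
Mean change of each of 12695 genes over 39 pools (SD minus Ctr, log2) in cortex (horizontal axis) and in liver (vertical axis), coloured by class, with equal change in both tissues on the dashed line. Cortex-limited genes, such as Nr4a1 at 1.53 in cortex, lie along the horizontal axis, and liver-limited genes, such as Ttll8 at 2.80 in liver, along the vertical axis. Opposite genes lie at the lower right, as Cml5 does, or at the upper left, away from the dashed line.

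Shared rises without a called tissue difference were led by Hspb1 and Map3k6, with Per1 among the 6 named by rule. Hspb1, a small heat shock protein that holds unfolded proteins and actin filaments, rose 2.81-fold in cortex and 2.64-fold in liver. Per1, a clock repressor that is also induced by glucocorticoids and by activity, rose 1.66-fold and 1.8-fold. Also in this group were Map3k6, a kinase of stress-activated MAP kinase signalling, P4ha1, the catalytic subunit of the prolyl hydroxylase that matures collagen, Lyve1, the hyaluronan receptor of lymphatic and liver sinusoidal endothelium, and A230056P14Rik, a transcript of unknown role. The 6 were those with the largest rise in the tissue where they rose less, among 170 genes that met the rule for naming (a mean of at least 0 log2 CPM in both tissues with 35 or more of the 39 pools moving one way).

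For 3 of these genes the promoter holds motifs of heat shock, glucocorticoid or clock factors, and the stretches with them are shown because the genes rose in both tissues without a called difference. They are taken from the RefSeq windows of GRCm38.p6, from 250 bases before to 50 bases after the start of the gene, and are written 5′ to 3′ on the strand of the gene. Capitals mark a pair of heat shock units that meet head to head (GAANNTTC, at 2 places in Hspb1, chr5:135887794-135887838, plus strand), a glucocorticoid receptor core (ACANNNTGT) that runs into a pair of heat shock units tail to tail (TTCNNGAA) in Map3k6 (chr4:133240628-133240667, plus strand), and an E-box (CACGTG), the letters bound by the clock factors CLOCK and BMAL1, in Per1 (chr11:69098764-69098803, plus strand).
Hspb1: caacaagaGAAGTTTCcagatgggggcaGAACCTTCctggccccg
Map3k6: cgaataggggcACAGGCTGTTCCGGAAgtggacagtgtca
Per1: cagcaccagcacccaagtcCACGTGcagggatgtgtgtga
Of 32851 windows in all, a share of 7.86% held GAANNTTC, 8.52% TTCNNGAA, 7.15% CACGTG, 6.85% ACANNNTGT and 1.79% the cAMP response element TGACGTCA, searched on both strands. A window was found for 40 of the 56 genes named by rule, and 2, 3, 6, 4 and 1 of them held these motifs in the same order. These shares describe the letters, and binding was not measured. The motifs also lay in named genes of other classes and directions: ACANNNTGT in C7, Tacc3 and Fam107a, GAANNTTC in Ttll8 and TTCNNGAA in Cml5.

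Hspb1 (mm9 chr5:136363789-136365433) was measured at -0.20 to 2.96 (median 0.63) in cortex Ctr and 1.64 to 2.75 (median 2.12) in cortex SD, and at 3.13 to 5.12 (median 4.03) in liver Ctr and 4.82 to 6.06 (median 5.55) in liver SD. These and all levels below are the lowest, highest and median log2 CPM of the 39 pools. The ranges of SD and Ctr overlapped in both tissues, but the gene rose in 38 of 39 pools in cortex and in 39 of 39 in liver. Its change was 1.49 (SE 0.079, adjusted p = 4.7e-22) in cortex and 1.4 (SE 0.064, adjusted p = 9.8e-23) in liver, and the tissue difference was -0.093 (95% confidence interval -0.27 to 0.087, adjusted p = 0.38). On the log2(CPM + 1) scale, which weighs low values down, the difference of Hspb1 turned to 0.29 and that of Lyve1 to 0.34 and both were called, so that they are without a called difference on the deposited scale only. P4ha1 (mm9 chr10:58786044-58836052) was at 5.13 to 5.76 (median 5.37) in cortex Ctr and 6.03 to 6.58 (median 6.36) in cortex SD, with no overlap between the conditions, and at 4.67 to 5.52 (median 5.09) in liver Ctr and 5.43 to 6.72 (median 6.07) in liver SD, with overlap. Its changes of 0.98 and 1.02 left a tissue difference of 0.034 (95% confidence interval -0.074 to 0.14, adjusted p = 0.61). For Per1 (mm9 chr11:68908719-68923462) values were 6.26 to 7.14 (median 6.83) in cortex Ctr and 7.25 to 7.76 (median 7.5) in cortex SD, without overlap, and 4.41 to 6.91 (median 5.97) in liver Ctr and 5.18 to 7.46 (median 6.84) in liver SD. Its changes were 0.73 in cortex and 0.85 in liver, and the difference was 0.12 (95% confidence interval -0.046 to 0.28, adjusted p = 0.22). Map3k6 rose by 1.31 and 1.35, Lyve1 by 0.93 and 0.84 and A230056P14Rik by 0.79 and 0.93, in cortex and liver. The last of these shares 538 exonic bases with Gm15888 on its own strand, and reads of the pair can be split between them.

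The shared falls without a called tissue difference were led by Accs, which codes for a relative of a plant ethylene synthesis enzyme, with changes of -0.79 in cortex and -0.95 in liver, by Spata24 (-0.83 and -0.72), by Nmnat3, a mitochondrial enzyme of NAD synthesis (-0.67 and -0.74), by Neurl2 (-0.68 and -0.68), by Lrrcc1, a centrosomal protein (-0.58 and -0.69), and by Morn1 (-0.57 and -0.68), with cortex given first. Accs (mm9 chr2:93673624-93690100) was at 1.07 to 2.26 (median 1.79) in cortex Ctr and 0.33 to 1.62 (median 1.01) in cortex SD and at 2.81 to 4.43 (median 4.05) in liver Ctr and 1.78 to 3.73 (median 3.03) in liver SD. The conditions overlapped in both tissues, and the gene fell in 39 of 39 pools in cortex and 37 of 39 in liver. Its tissue difference of -0.16 (95% confidence interval -0.33 to 0.012, adjusted p = 0.11) passed the threshold without BXD55 (-0.19, adjusted p = 0.038), without BXD65 (-0.19, adjusted p = 0.047), with all 43 pools (-0.18, adjusted p = 0.049) and on the log2(CPM + 1) scale (-0.30, adjusted p = 5.0e-04). Nmnat3 passed on the last scale as well (-0.31, adjusted p = 3.5e-06).

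Among shared genes with unequal change, those induced by glucocorticoids stood on both sides. Zbtb16, a zinc finger repressor, and Fam107a, an actin-binding protein, rose more in liver, and Plin4, a coat protein of lipid droplets, rose more in cortex. Fos rose more in cortex too. Herc3, a ubiquitin ligase, fell more in liver. Zbtb16 (mm9 chr9:48462416-48644050) was at 4.81 to 6.25 (median 5.87) in cortex Ctr and 5.89 to 6.99 (median 6.56) in cortex SD and at 3.13 to 4.96 (median 3.75) in liver Ctr and 3.89 to 7.32 (median 6.04) in liver SD. It rose in 39 of 39 pools in each tissue, 1.63-fold in cortex and 4.23-fold in liver, and the difference was 1.38 (SE 0.12, adjusted p = 1.3e-13), above 0 in 37 of 39 pools. Plin4 (mm9 chr17:56240014-56249225) was at -0.39 to 3.15 (median 0.92) in cortex Ctr and 1.41 to 5.35 (median 3.73) in cortex SD and at 0.15 to 3.87 (median 1.99) in liver Ctr and 0.56 to 5.39 (median 3.31) in liver SD. Its rise was 6.36-fold in cortex and 2.3-fold in liver, and the difference was -1.47 (SE 0.16, adjusted p = 9.1e-11), below 0 in 36 of 39 pools.

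The fall of Herc3 in liver was the steepest of the shared ones named. The gene (mm9 chr6:58781459-58870392) was at 8.09 to 8.91 (median 8.26) in cortex Ctr and 7.94 to 8.23 (median 8.1) in cortex SD, and at 4.83 to 5.83 (median 5.42) in liver Ctr and 2.12 to 4.09 (median 3.41) in liver SD, where no SD pool reached the lowest Ctr pool. Its change was -0.18 (SE 0.021, adjusted p = 1.4e-10) in cortex and -2.07 (SE 0.072, adjusted p = 5.3e-27) in liver, with the liver lower in 39 of 39 pools. The transcript D130043K22Rik fell alongside, by 0.21 in cortex and 1.88 in liver. Rad51c, a factor of DNA repair by recombination, rose by 0.35 in cortex and 1.74 in liver, Nat14 by 0.16 and 1.55, Fam107a by 0.73 and 2.06, and Fos by 2.25 and 1.04. Nat14 and Fam107a were near the floor of the liver libraries in Ctr (medians -0.49 and -0.53 log2 CPM), where the change depends most on the count added before the logarithm. Their tissue differences lay between 0.67 and 1.5 and between 0.51 and 1.84 over all alternatives.

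The cortex-limited rises named by rule held activity-dependent transcription factors and signalling genes. Nr4a1, an orphan nuclear receptor, rose 2.88-fold in cortex, Egr1, a zinc finger factor, 2.65-fold, Sik1, a kinase that restrains CREB coactivators, 2.77-fold, and Cyr61, a matricellular protein and serum response gene, 2.44-fold, and with all 39 pools none of them was called in liver. Tm6sf2, a membrane protein of lipoprotein assembly that is best known from liver, rose 3.2-fold in cortex, and Dok3, an adaptor of immune receptor signalling, 2.69-fold. The 6 were taken from 754 genes that met the rule.

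Nr4a1 (mm9 chr15:101097277-101105223) was at 5.33 to 7.08 (median 6.05) in cortex Ctr and 7.04 to 8.07 (median 7.55) in cortex SD and at -0.64 to 3.1 (median 1.28) in liver Ctr and 0.22 to 2.73 (median 1.55) in liver SD. All 39 pools rose in cortex, while 20 of 39 rose in liver. The change in liver was 0.13 (95% confidence interval -0.12 to 0.39, adjusted p = 0.38), and the tissue difference -1.39 (SE 0.15, adjusted p = 1.7e-10). Egr1 was at 7.22 to 8.63 (median 7.71) in cortex Ctr and 8.55 to 9.56 (median 9.2) in cortex SD and at 3.18 to 6.56 (median 4.71) in liver Ctr and 3.68 to 6.2 (median 5.19) in liver SD. In liver it rose in 24 of 39 pools, over a wide range of changes from -1.88 to 1.99. Its interval there, 0.27 (95% confidence interval -0.024 to 0.57, adjusted p = 0.11), reaches 0.57, so that a rise in liver up to that size may be missed. It was called in liver with all 43 pools (0.39, adjusted p = 0.021) and without BXD43 (0.33, adjusted p = 0.045), and then was shared with a larger change in cortex. The change of Tm6sf2 in liver was -0.0084 (95% confidence interval -0.068 to 0.051, adjusted p = 0.83), with pools at 6.08 to 7.11 (median 6.5) in liver Ctr and 6.11 to 7.0 (median 6.55) in liver SD, against -0.28 to 2.08 (median 0.69) in cortex Ctr and 1.84 to 2.92 (median 2.42) in cortex SD. Sik1 changed by -0.12 (95% confidence interval -0.25 to 0.017, adjusted p = 0.13) in liver and Dok3 by 0.097 (95% confidence interval -0.12 to 0.31, adjusted p = 0.46).

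Cyr61 is shown with its promoter because it holds the same heat shock pair as Map3k6 (TTCNNGAA, in capitals) although the genes fell into different classes (chr3:145650046-145650085, minus strand of GRCm38.p6, listed there as Ccn1).
Cyr61: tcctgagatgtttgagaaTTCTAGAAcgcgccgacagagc
The gene was at 1.02 to 2.91 (median 1.78) in cortex Ctr and 2.47 to 3.95 (median 3.06) in cortex SD and at 4.09 to 5.48 (median 4.97) in liver Ctr and 4.32 to 5.66 (median 5.07) in liver SD, and rose by 1.28 (SE 0.08, adjusted p = 1.6e-19) in cortex against 0.11 (95% confidence interval -0.0083 to 0.22, adjusted p = 0.11) in liver, where it was called without BXD67 (0.13, adjusted p = 0.043).

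Among the cortex-limited falls named by rule, Pipox, a peroxisomal oxidase of pipecolate and sarcosine, fell by 0.88 in cortex. Tacc3, a protein of the mitotic spindle, fell by 0.88 and Pole, the catalytic subunit of DNA polymerase epsilon, by 0.88. 1700001L05Rik fell by 1.46 and C7, a component of the complement attack complex, by 1.01. Pipox (mm9 chr11:77694117-77707598) was at -0.67 to 1.69 (median 0.55) in cortex Ctr and -1.17 to 0.42 (median -0.26) in cortex SD, and at 7.59 to 8.09 (median 7.82) in liver Ctr and 7.55 to 8.15 (median 7.8) in liver SD, where its change was -0.025 (95% confidence interval -0.066 to 0.015, adjusted p = 0.29). Some of these calls rest on the settings: in liver 1700001L05Rik was called with voom weights (0.11, adjusted p = 0.037) and without BXD70 and BXD89 (0.15, adjusted p = 0.044), Pole with voom weights (0.17, adjusted p = 0.023), Pipox after quantile normalization (-0.047, adjusted p = 0.012) and Tacc3 without BXD100 (-0.15, adjusted p = 0.032). On the log2(CPM + 1) scale the tissue differences of Pipox and C7 were 0.43 and 0.65, in place of 0.85 and 1.14. As for cell type markers, 7 of 8 hepatocyte markers, Alb among them, were not listed in cortex, and the 8th, Ttr, which choroid plexus also expresses, ran from 0.86 to 7.77 log2 CPM in cortex Ctr and from 1.49 to 8.57 in SD (change -0.46, adjusted p = 0.24). Of the 3 choroid plexus markers tested, Ttr among them, 1 was called as a rise in cortex and 0 as a fall, with a median change of -0.061. The part of choroid plexus in the cortex-limited falls was not tested. In bulk tissue a fall can come from fewer cells of a type or from less RNA per cell, and these cannot be told apart here.

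The liver-limited rises named by rule held genes of translation control, lipid handling and microtubules. Eif4ebp3, a repressor of cap-dependent translation, rose 2.15-fold in liver. Lpin1, a phosphatidate phosphatase and partner of nuclear receptors in fasting, rose 1.81-fold, Slc25a30, a mitochondrial carrier, 1.99-fold, Shh, the hedgehog ligand, 2.06-fold, and the microtubule genes Ttll8, a tubulin glycylase, and Map10 6.97-fold and 1.83-fold. With all 39 pools none of these 6, drawn from 162 genes that met the rule, was called in cortex, and after quantile normalization Slc25a30 was (0.087, adjusted p = 0.028). Shh was near the floor in liver Ctr (median -0.30 log2 CPM), and its tissue difference of 1.07 was 0.55 on the log2(CPM + 1) scale.

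Lpin1 (mm9 chr12:16542475-16596576) was at 4.91 to 5.46 (median 5.2) in cortex Ctr and 5.02 to 5.48 (median 5.18) in cortex SD and at 6.78 to 8.93 (median 7.88) in liver Ctr and 6.48 to 9.62 (median 8.73) in liver SD. It rose in 37 of 39 pools in liver and in 22 of 39 in cortex, with overlap of the conditions in both. The change in cortex was 0.0034 (95% confidence interval -0.033 to 0.04, adjusted p = 0.87), and the tissue difference 0.85 (SE 0.085, adjusted p = 1.5e-11). Eif4ebp3 (mm9 chr18:36823714-36825571) was at 4.42 to 5.76 (median 5.0) in liver Ctr and 5.65 to 6.65 (median 6.17) in liver SD and at 2.93 to 3.64 (median 3.19) in cortex Ctr and 2.91 to 3.45 (median 3.17) in cortex SD, and the smallest change of a pool in liver (0.36) was above the largest in cortex (0.30). Its exons share 501 bases with Ankhd1 on the same strand. Ttll8 was at -2.77 to 0.83 (median -0.72) in liver Ctr and -0.038 to 3.12 (median 2.09) in liver SD, so that its Ctr pools lay near the floor of -2.77, and its tissue difference ran from 1.7 to 3.01 over the alternatives.

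The liver-limited falls named by rule were of unlike roles. Slc1a4, a transporter of serine, alanine and threonine, fell by 1.2, Lrrc16a, a regulator of actin capping, by 1.48, Tnfaip8l3, a phosphoinositide transfer protein, by 1.5 and Zfp618 by 1.39. Slc1a4 (mm9 chr11:20202183-20232716) was at 4.02 to 5.73 (median 5.02) in liver Ctr and 2.89 to 4.73 (median 3.78) in liver SD and at 6.16 to 6.95 (median 6.31) in cortex Ctr and 6.08 to 6.59 (median 6.35) in cortex SD. It fell in 39 of 39 pools in liver, while its change in cortex was 0.011 (95% confidence interval -0.028 to 0.05, adjusted p = 0.6). Lrrc16a (mm9 chr13:24104213-24372664) was at 6.12 to 7.59 (median 7.0) in liver Ctr and 3.89 to 6.04 (median 5.57) in liver SD, with every SD pool below every Ctr pool, and at 4.71 to 5.2 (median 5.02) in cortex Ctr and 4.82 to 5.1 (median 4.97) in cortex SD. Lrrc16a was also called in cortex, at -0.053 to -0.037, under 9 alternatives: with all 43 pools, with libraries centred on their medians, after quantile normalization (adjusted p = 0.0078) and without BXD43, BXD56, BXD61, BXD79, BXD90 or BXD103. The tissue difference of Zfp618, -1.47, was -0.88 on the log2(CPM + 1) scale.

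Also in this group were Gria3, a subunit of the AMPA glutamate receptor, and Snhg11, a snoRNA host transcript abundant in neurons, which fell by 1.06 and 1.18 in liver. Gria3 was at -0.083 to 3.65 (median 1.94) in liver Ctr and -2.75 to 2.77 (median 0.97) in liver SD, against 8.2 to 8.69 (median 8.57) in cortex Ctr and 8.4 to 8.64 (median 8.53) in cortex SD. Of 8 neuronal markers 3 were listed in liver, and 1 of these, Syt1, fell there, by 0.82 in 39 of 39 pools, from a median of 6.04 to 5.19 log2 CPM. Rbfox3 had medians of 0.88 and 0.68 and Nrgn of 0.12 and -0.12, and neither was called. The summed level of the 3 ran from 5.52 to 6.83 log2 CPM in liver Ctr and from 4.52 to 5.8 in SD, and Snap25, Stmn2, Slc17a7, Gad1 and Camk2a were not listed in liver. In cortex Gria3 was called after quantile normalization (-0.054, adjusted p = 0.0014) and without BXD56 (-0.031, adjusted p = 0.039). The part of nerve tissue in the falls of Gria3 and Snhg11 was not tested.

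Opposite responses were mostly small. In 179 of the 1648 both changes were at least 0.25, and in 24 both were at least 0.5, of which 8 rose in liver and 16 fell there. Those that fell in liver and rose in cortex included Rbm3, an RNA-binding protein induced by cold, Fst, the secreted activin antagonist follistatin, Maml3, a coactivator of Notch, Gadd45a, a stress gene of growth arrest, Impg2, a proteoglycan of the retina, Cml5, of an acetyltransferase family, and the unnamed transcript 2310003H01Rik. Those that rose in liver and fell in cortex included Mycl, of the MYC family of growth regulators, Gm129 (Ciart), a repressor in the circadian clock, Cln6, a membrane protein of the endoplasmic reticulum, Rasgef1b, an exchange factor of small GTPases, and Slc41a3, a magnesium transporter. Adamtsl2, a glycoprotein of the matrix, is the other gene named by rule and fell by less than 0.5 in cortex.

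Rbm3 (mm9 chrX:7716101-7723006) was at 3.57 to 4.25 (median 3.91) in cortex Ctr and 4.31 to 4.8 (median 4.56) in cortex SD, with no overlap, and at 5.62 to 6.33 (median 6.09) in liver Ctr and 4.62 to 6.12 (median 5.22) in liver SD. It rose 1.57-fold in cortex in 39 of 39 pools, and in liver changed by -0.86 (SE 0.042, adjusted p = 1.2e-21), and fell in 38 of 39. The tissue difference was -1.51 (SE 0.051, adjusted p = 2.9e-26) and was below 0 in 39 of 39 pools. Cirbp, the other cold-inducible RNA-binding protein, fell in both tissues, by 1.24 in cortex and 1.52 in liver, so the pair moved apart in cortex, where Rbm3 rose and Cirbp fell in all 39 pools, and together in liver. Impg2 (mm9 chr16:56204426-56273869) was at -0.76 to 0.76 (median 0.046) in cortex Ctr and 0.23 to 1.78 (median 1.15) in cortex SD and at 3.56 to 4.88 (median 4.52) in liver Ctr and 1.54 to 4.52 (median 3.58) in liver SD. Its changes of 1.03 in cortex and -1.04 in liver gave a difference of -2.07 (SE 0.10, adjusted p = 5.2e-21). Cml5 changed by 1.36 in cortex and -1.08 in liver and shares 135 exonic bases with Gm11128, Fst by 0.76 in cortex and -0.77 in liver, Maml3 by 0.97 in cortex and -0.64 in liver, 2310003H01Rik by 0.67 in cortex and -0.74 in liver and Gadd45a by 0.92 and -0.61.

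Mycl was at 3.0 to 4.07 (median 3.72) in cortex Ctr and 2.69 to 3.67 (median 3.05) in cortex SD and at 4.08 to 5.61 (median 5.02) in liver Ctr and 5.07 to 6.33 (median 5.88) in liver SD. The conditions overlapped, but within pools it fell in cortex and rose in liver in 39 of 39. The changes were -0.62 (SE 0.035, adjusted p = 4.3e-21) and 0.91 (SE 0.05, adjusted p = 5.1e-20), and the difference 1.53 (SE 0.056, adjusted p = 2.3e-25). Cln6 changed by -0.77 in cortex and 0.56 in liver, Rasgef1b by -0.54 in cortex and 0.73 in liver, Slc41a3 by -0.69 in cortex and 0.53 in liver and Adamtsl2 by -0.48 in cortex and 0.73 in liver. Exons of Cln6 overlap those of Gm10653 on the other strand by 181 bases, and the libraries were counted by strand.

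Gm129 and Slc41a3 are shown with their promoters because both hold an E-box, as does Per1, which rose in both tissues. The other named genes with an E-box were Neurl2, a shared fall, 1700001L05Rik, a cortex-limited fall, and Map10, a liver-limited rise. The stretch of Gm129 (chr3:95882259-95882358, minus strand of GRCm38.p6) holds the motif at 3 places and that of Slc41a3 (chr6:90619016-90619055, plus strand) at 1, in capitals.
Gm129: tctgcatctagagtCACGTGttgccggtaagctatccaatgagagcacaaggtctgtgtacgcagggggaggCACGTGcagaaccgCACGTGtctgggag
Slc41a3: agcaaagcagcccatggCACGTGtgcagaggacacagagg
Gm129 (mm9 chr3:95682426-95686174) was at 3.1 to 4.56 (median 3.97) in cortex Ctr and 2.83 to 3.96 (median 3.4) in cortex SD and at 0.16 to 5.64 (median 5.04) in liver Ctr and 3.73 to 6.03 (median 5.29) in liver SD. Its changes were -0.51 (SE 0.052, adjusted p = 3.7e-12) and 0.51 (SE 0.13, adjusted p = 7.0e-04), and it went down in cortex in 35 pools of 39 and up in liver in 31. The lowest liver Ctr value was that of BXD85, a line pooled from fewer mice than most, at 0.16, and the next was 2.49. Without BXD85 the tissue difference was 0.93 in place of 1.02.

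**Figure D3:**
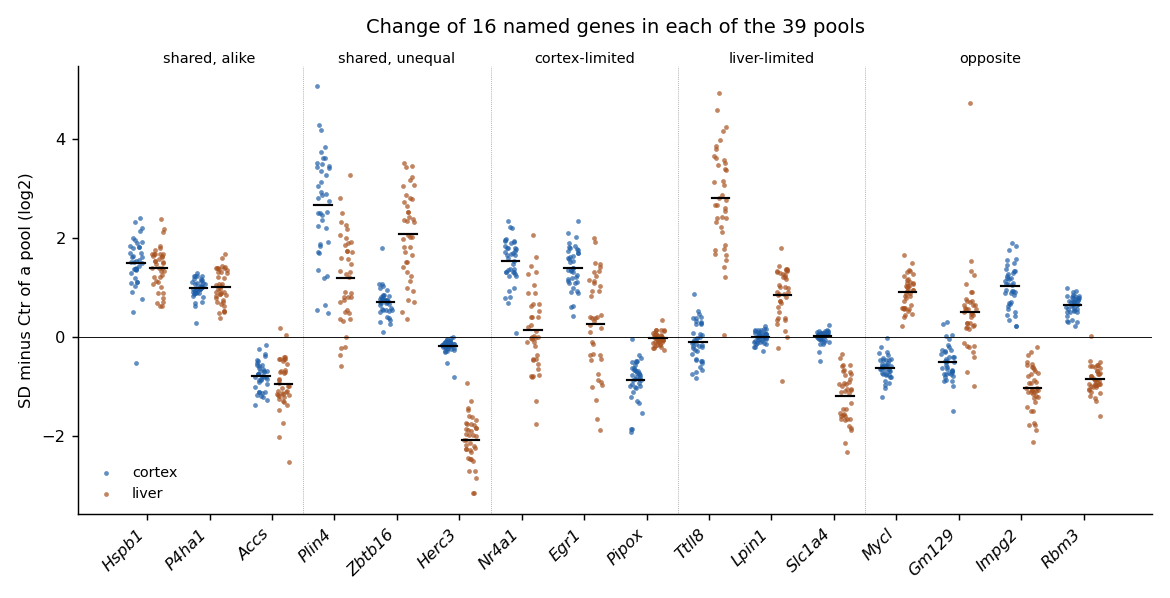
Change of 16 named genes (SD minus Ctr, log2) in each of the 39 pools, 1 point per pool, in cortex (left of each pair) and in liver (right), with bars at the means. Hspb1 and P4ha1 rose in both, the changes of Nr4a1, Egr1 and Pipox in liver spread around 0, as those of Ttll8, Lpin1 and Slc1a4 did in cortex, and Mycl, Gm129, Impg2 and Rbm3 lie on different sides of 0 in the tissues.

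In 63 genes (0.496% of those tested) the changes of all 39 pools in liver lay on one side of all 39 in cortex, with liver higher in 22 and lower in 41. Of these genes 51 were opposite, 5 liver-limited, 4 shared with a larger change in liver, 2 shared with a larger change in cortex and 1 cortex-limited. This count and the genes named from it were chosen after the values were seen. Fam65b, an inhibitor of small GTPase signalling, had the widest gap, with changes of -0.11 to 0.41 in cortex and -4.95 to -1.09 in liver. Slco1b2, the hepatic transporter of bile acids and drugs, changed by 0.95 to 4.08 in cortex, where its mean level was -0.23 log2 CPM, and by -0.41 to 0.25 in liver. Other genes of the set were picked by eye. Homer1, a scaffold of glutamate receptors whose short form follows activity, had mean changes of 0.86 and -0.16, in cortex and liver, Shank2, a postsynaptic scaffold, 0.52 and -0.90, Synpo, a protein of the spine apparatus, 0.30 and -0.62, and Syt11, of the synaptotagmins, -0.13 and 1.27. Sort1, a sorting receptor that binds lipoproteins, had 0.043 and -1.05, Slc22a5, the carnitine transporter, -0.16 and 0.51, and Hspa5, the main chaperone of the endoplasmic reticulum, 1.32 and 0.12.

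Gene lists describe the classes by function. Over all genes tested the median change was -0.0031 in cortex and 0.0012 in liver and the median tissue difference -0.0033, and the shares called are those given above, 28.0% above 0 and 29.6% below. The counts below are read against these, and no list was tested as a set.

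Most immediate early genes had the larger change in cortex. Of 21 tested, 18 rose in cortex and 11 in liver, the tissue difference was below 0 in 15 and above 0 in 3, and the median change was 0.94 in cortex and 0.18 in liver. Members with a larger rise in cortex were Fosl2 (1.44 in cortex and 0.44 in liver), Maff (1.71 in cortex and 0.90 in liver), Fosb (1.76 in cortex and 1.05 in liver) and Ier2 (1.01 in cortex and 0.081 in liver). Junb changed by 1.21 in cortex and 0.047 (95% confidence interval -0.046 to 0.14, adjusted p = 0.4) in liver, and Klf4 by 0.94 and -0.079 (95% confidence interval -0.30 to 0.14, adjusted p = 0.56). Nr4a2, a close relative of Nr4a1, went the other way, with a rise of 0.32 in cortex and 1.07 in liver and a difference of 0.75 (SE 0.13, adjusted p = 5.3e-06). Among inhibitors that end MAP kinase signals, of 16, 14 rose in cortex and 8 in liver, and the difference was below 0 in 11 and above 0 in 2. Dusp4 rose by 1.5 in cortex and 0.56 in liver, Spry4 by 1.17 in cortex and 0.30 in liver, Dusp6 by 1.11 in cortex and 0.29 in liver and Dusp1 by 1.15 in cortex and 0.65 in liver. Dusp8 was opposite, with -0.11 in cortex and 0.76 in liver.

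Chaperones rose in both tissues. In the endoplasmic reticulum the rise was larger in cortex: 25 of 26 genes rose there and 20 in liver, the difference was below 0 in 22 and above 0 in 2, and 17 were shared with a larger change in cortex. Hspa5 was at 7.4 to 8.18 (median 7.63) in cortex Ctr and 8.54 to 9.21 (median 8.99) in cortex SD and at 8.22 to 8.81 (median 8.43) in liver Ctr and 8.27 to 8.8 (median 8.6) in liver SD. It rose in 39 of 39 pools in cortex and 33 of 39 in liver, by 1.32 (SE 0.033, adjusted p = 8.0e-34) and 0.12 (SE 0.02, adjusted p = 2.3e-06). Sdf2l1 rose by 1.66 in cortex and 0.50 in liver, Pdia4 by 1.05 in cortex and 0.19 in liver, Manf by 0.99 in cortex and 0.15 in liver and Xbp1, the transcription factor of the unfolded protein response, by 0.72 in cortex and 0.13 in liver. Derl3, of the degradation machinery, rose more in liver (1.19 in cortex and 1.66 in liver). In the cytosol all 27 chaperones and co-chaperones rose in cortex and 24 rose in liver, and the difference was above 0 in 8 and below 0 in 11. Several heat-inducible members rose more in liver. Hspa1a, an inducible HSP70, was at 1.89 to 2.84 (median 2.4) in cortex Ctr and 2.39 to 3.71 (median 3.12) in cortex SD and at -2.77 to 1.16 (median 0.21) in liver Ctr and -0.35 to 3.85 (median 1.66) in liver SD, with changes of 0.72 and 1.69. Hspa1b rose by 1.34 in cortex and 1.74 in liver, Hsph1 by 0.83 in cortex and 1.31 in liver, Hspa4l by 0.29 in cortex and 0.99 in liver and Hsp90aa1 by 0.23 in cortex and 0.63 in liver. Hspa1a and Hspa1b are near-identical copies, and the division of reads between them is uncertain. The constitutive Hspa8 rose more in cortex (0.62 in cortex and 0.23 in liver), and Dnajb5 was opposite (0.94 in cortex and -0.14 in liver).

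Genes induced by glucocorticoids rose in both tissues, 22 of 23 in cortex and 19 in liver, and the median change was 0.63 in cortex and 0.65 in liver. They were not of equal size in the tissues: 9 were shared with a larger change in cortex, 7 with a larger change in liver and 3 alike, and the difference was above 0 in 7 and below 0 in 12. Beside Zbtb16, Fam107a and Plin4, the metallothioneins Mt1 (0.37 in cortex and 0.81 in liver) and Mt2 (0.67 in cortex and 1.4 in liver) rose more in liver, and Cdkn1a (1.64 in cortex and 0.94 in liver), Tsc22d3 (1.0 in cortex and 0.60 in liver) and Sgk1 (0.62 in cortex and, in liver, 0.0045, 95% confidence interval -0.098 to 0.11, adjusted p = 0.95) changed more in cortex. Pdk4, the kinase that closes pyruvate dehydrogenase in fasting, was opposite. It was at 3.19 to 3.97 (median 3.74) in cortex Ctr and 3.42 to 4.73 (median 3.89) in cortex SD and at 3.52 to 6.29 (median 4.85) in liver Ctr and 2.95 to 5.44 (median 3.86) in liver SD, and changed by 0.18 (SE 0.037, adjusted p = 3.4e-05) and -0.95 (SE 0.095, adjusted p = 9.4e-12).

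Most RNA-binding and splicing factors of the list had a lower response in liver than in cortex. Of 32, 22 rose and 7 fell in cortex, 13 rose and 14 fell in liver, and the difference was below 0 in 24 and above 0 in 4. Beside Rbm3 and Cirbp, Srsf3 was opposite (0.30 in cortex and -0.29 in liver), and Hnrnpd and Srsf2 fell in liver (by 0.50 and 0.38), with changes in cortex of 0.0021 (95% confidence interval -0.019 to 0.023, adjusted p = 0.86) and -0.0092 (95% confidence interval -0.032 to 0.013, adjusted p = 0.45).

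Most genes of cholesterol synthesis fell in both tissues. Of 23 genes of cholesterol synthesis and uptake, 16 fell and 4 rose in cortex and 19 fell and 1 rose in liver, with the difference above 0 in 6 and below 0 in 12. The median change of this list was -0.18 in cortex and -0.24 in liver. Against the direction of most called differences, Insig1, which holds the regulators of the pathway in the endoplasmic reticulum, fell more in cortex (-0.55 in cortex and -0.26 in liver). Of 18 genes of fatty acid synthesis, 9 fell and 3 rose in cortex and 11 fell and 2 rose in liver, and the difference was below 0 in 11 and above 0 in 2. Fasn, the fatty acid synthase, changed by -0.098 in cortex and -0.53 in liver, Srebf1, its regulator, by -0.33 in cortex and -0.63 in liver, Scd2 by -0.028 in cortex and -0.54 in liver and Pnpla3, a lipid droplet hydrolase under the same regulator, by -0.19 in cortex and -1.55 in liver. Pnpla3 was at -0.85 to 5.47 (median 3.5) in liver Ctr and -1.61 to 4.89 (median 1.6) in liver SD. Of 28 genes of fatty acid oxidation 12 rose and 7 fell in cortex and 13 rose and 1 fell in liver. The difference was above 0 in 10 and below 0 in 4. Acot1 (0.27 in cortex and 0.95 in liver) and Angptl4 (0.59 in cortex and 0.98 in liver) rose more in liver.

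In glucose metabolism Pfkfb1, the liver form of the enzyme that sets fructose 2,6-bisphosphate, was opposite. It was at -1.38 to 0.27 (median -0.28) in cortex Ctr and -1.86 to -0.18 (median -0.86) in cortex SD and at 5.64 to 6.92 (median 6.42) in liver Ctr and 6.46 to 7.52 (median 7.1) in liver SD, with changes of -0.57 (SE 0.085, adjusted p = 5.2e-08) and 0.62 (SE 0.043, adjusted p = 2.1e-16), while the inducible form Pfkfb3 rose in both (0.86 in cortex and 1.42 in liver) and Slc2a1, the glucose transporter of the blood-brain barrier, rose by 0.47 in cortex against -0.088 (95% confidence interval -0.17 to -0.0024, adjusted p = 0.075) in liver. In all, 10 of 26 genes of this list had a higher and 6 a lower response in liver. Of 18 genes of gluconeogenesis and amino acid catabolism 6 had a higher and 7 a lower one, among them Cps1, of the urea cycle (-0.51 in cortex and, in liver, 0.012, 95% confidence interval -0.031 to 0.055, adjusted p = 0.66), and of 24 genes of insulin signalling 5 and 8. Irs2 rose more in cortex (1.01 in cortex and 0.45 in liver), and Foxo1 rose by 0.48 in liver, against 0.003 (95% confidence interval -0.037 to 0.043, adjusted p = 0.9) in cortex. Of 18 targets of hypoxia-inducible factors 5 had a higher and 7 a lower response in liver, and Vegfa was opposite (0.33 in cortex and -0.18 in liver).

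Clock genes were found in several classes. Of 19, the response was higher in liver in 7 and lower in 5. In cortex Per2 and Nfil3 rose and Dbp, a direct output of the clock, fell, by 1.01, 1.0 and 0.77. In liver Per2 rose by 0.34, while Nfil3 changed by 0.0072 (95% confidence interval -0.085 to 0.099, adjusted p = 0.9) and Dbp by 0.12 (95% confidence interval 0.0044 to 0.24, adjusted p = 0.073). Bhlhe40 rose by 0.65 in cortex against -0.024 (95% confidence interval -0.089 to 0.04, adjusted p = 0.54) in liver, Tef was opposite (-0.18 in cortex and 0.13 in liver) and Per3 fell in liver by 0.31, against 0.025 (95% confidence interval -0.021 to 0.071, adjusted p = 0.32) in cortex. The liver Ctr library of BXD85, a line pooled from fewer mice than most, stood apart for these genes, which was seen after the values were examined. It was the lowest of the 39 for 10 of the 19 genes and the highest for 4, while no other pool was lowest for more than 2 or highest for more than 3. Per3 was at 2.74 log2 CPM in it and at 5.1 or more in the others, Dbp at 4.98 against 6.67, and Arntl, which peaks at the other end of the cycle, at 6.81 against at most 5.38. The liver SD library of BXD85 was lowest or highest for none of the 19. Without BXD85 the tissue differences were 0.85 for Dbp, -0.98 for Nfil3 and -0.42 for Per3, in place of 0.90, -1.0 and -0.33. The calls of Cry1 (0.11, adjusted p = 0.11) and Bhlhe41 changed: Cry1 then differed by 0.15 (adjusted p = 0.02), and Bhlhe41, at -0.22 in liver with all pools (adjusted p = 0.085), was called there at -0.31 (adjusted p = 2.7e-04).

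Subunits of ribosomes, the respiratory chain and the proteasome were called in smaller shares than all genes. Of 76 cytosolic ribosomal proteins 5 had a higher and 5 a lower response in liver, of 74 subunits of the respiratory chain 10 and 6, of 37 proteasome subunits 9 and 8, and of 76 mitochondrial ribosomal proteins 9 and 24. Among 42 initiation factors the counts were 12 and 14, with Eif4ebp1 opposite (-0.47 in cortex and 0.10 in liver) beside Eif4ebp3, and among 20 cytosolic tRNA synthetases 4 and 11. Atf4, which controls many of the latter, was opposite (0.25 in cortex and -0.17 in liver), and so were its target Mthfd2 (0.31 in cortex and -0.37 in liver), of folate metabolism, and Psat1 (0.091 in cortex and -0.68 in liver), of serine synthesis. Over 22 genes of the Atf4 list the difference was above 0 in 6 and below 0 in 6.

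**Figure D4:**
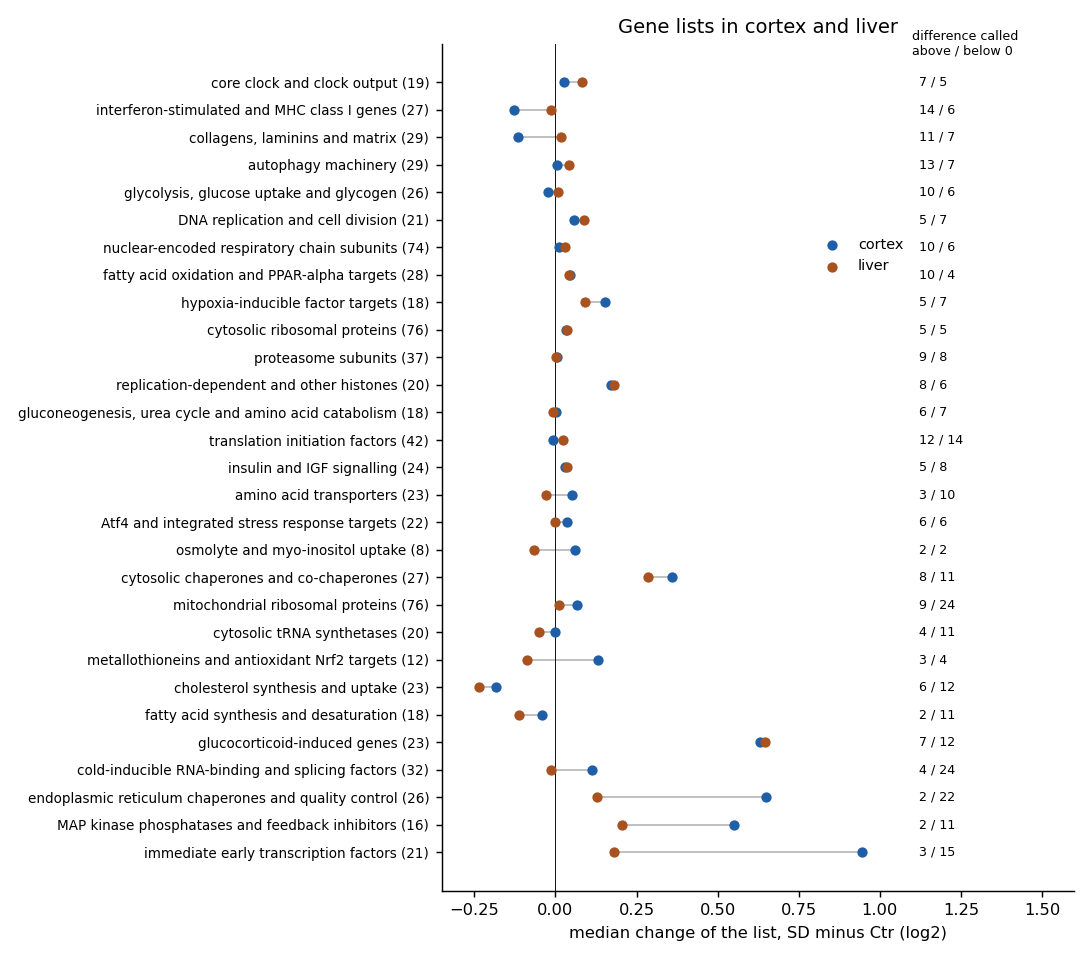
Median change of the tested members of 29 gene lists (SD minus Ctr, log2) in cortex and in liver, with the number of members in brackets and, at right, how many had a called tissue difference above and below 0. The gap is widest for immediate early genes (0.94 in cortex, 0.18 in liver), MAP kinase phosphatases and chaperones of the endoplasmic reticulum, and glucocorticoid-induced genes lie at 0.63 and 0.65.

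Genes at the highest CPM had smaller changes in their own tissue. In the 100 genes with the highest CPM in liver, a measure that is not scaled by gene length, the median absolute change in liver was 0.047, against 0.11 in all others. Of these 100, 41 were called in liver and 75 in cortex, against 55.2% and 76.9% of all genes tested. The 100 at the top of cortex had a median absolute change in cortex of 0.057, against 0.12. Of the 100 genes at the top of liver 30 were cortex-limited, against 18.7% of all genes tested, and these 30 are a small part of the 2380 cortex-limited genes. Whether the level itself has a part in this was not tested. In liver Ctr the median of Alb was 9.07 log2 CPM, below those of Aldh1l1 (9.34) and Apob (10.86), so the order by CPM may not follow the amount of a transcript. Whether the counts of the most abundant liver transcripts are compressed, which would shrink their changes, was not tested.

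The BXD/TyJ pools, which the classes did not use, gave the same measure a second time. In these 4 pools alone 1872 genes were called (limma, 14.7%), 1785 of them (95.4%) were also called in the 39 pools, and all 1785 had the same sign. Of the 7312 genes called in the 39 pools 6730 (92.0%) had the same sign in the mean of the 4, against 63.6% of the 5383 genes not called. A share of 53.8% of the 7312 had the same sign in all 4 pools at once, against 37.4% of all genes tested. Of the 7312, 24.4% were called in the 4 alone. The named genes were chosen for large changes that moved one way in most pools. Of the 44 with a called difference 43 had the same sign in that mean, 41 had it in each of the 4 pools and 35 were called in the 4 alone. Nr4a1 was not called there (-0.64, adjusted p = 0.12). The exception in the sign of the mean was Egr1, with a mean of 0.29 and pools at -0.92, 0.78, 0.25 and 1.07 (lines 05, 29, 29t and 32), against -1.13 over the 39. For Rbm3 these were -1.64, -1.13, -1.65 and -1.86 against -1.51, and for Mycl 2.02, 1.39, 1.03 and 1.32 against 1.53. Of the 12 named genes without a called difference 1 was called in the 4 pools, Per1, with a mean of 0.51 (adjusted p = 0.037) and all 4 pools above 0, which is the mean furthest from 0 among the 12. Lines 29 and 29t are related by name, and the labels do not say how they differ, so the 4 may hold fewer than 4 independent genotypes.

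**Figure D5:**
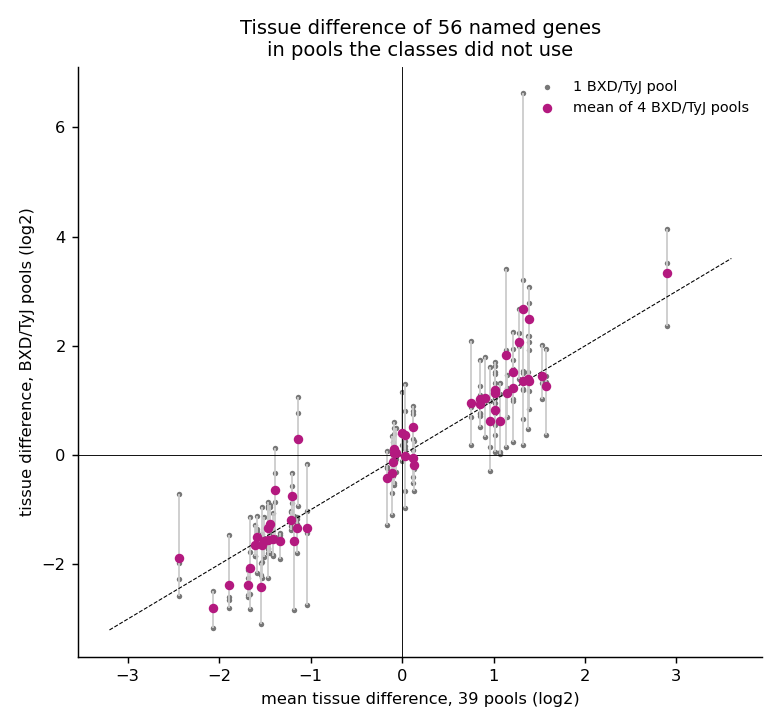
Tissue difference of the 56 named genes (log2) in the 39 pools (horizontal axis, mean) and in the 4 BXD/TyJ pools (vertical axis, small points for pools and large points for their mean), with equality on the dashed line. Of 44 genes with a called difference 43 have the same sign on both axes, and Egr1 at -1.13 and 0.29 does not.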

How the data were processed

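The authors pooled RNA over the mice of each line and condition and made single-end, stranded mRNA libraries. The deposited values are log2 CPM: per the paper's methods and the submitters' processing notes, the authors checked reads with FastQC, aligned them to mm9 with STAR, counted RefSeq genes by strand with HTSeq, excluded genes with a low mean count and normalized with edgeR's TMM method. Versions of STAR, HTSeq and edgeR are not given in the sources used here. Reversing the scaling returned integers, to a tolerance of 0.02 reads, for 100% of 2494258 values. The sums of these over the listed genes of a library were, lowest and highest, 18995492 and 28998853 in cortex Ctr, 19025159 and 28685060 in cortex SD, 5034166 and 8269401 in liver Ctr, and 4681101 and 8009362 in liver SD. All value columns were matched to samples (0 unused). The tables hold no pooled columns or authors' comparisons.

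For each of 39 pools SD minus Ctr was computed in cortex and in liver, and the difference of these, liver minus cortex, was tested against 0 with limma 3.58.1 in R 4.3.3 (lmFit on an intercept, eBayes with a variance trend, two-sided), as were the changes in each tissue. Adjusted p values (Benjamini-Hochberg, 12695 genes) were called at 0.05, and intervals have 95% confidence. The subtraction within a pool is the replicate block. Libraries of different conditions were matched by the line in their labels. After removal of condition means the Ctr and SD libraries of a line correlated at 0.285 or more in cortex (median 0.621). In liver they correlated at 0.144 or more (median 0.448). The medians for different lines were -0.0216 in cortex and -0.0148 in liver.

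Genes named had a mean of at least 0 log2 CPM in both tissues. In each class and direction they were the 6 with the largest change (the smaller of both changes for shared and opposite genes) that moved one way in 35 or more pools (30 for opposite genes), with 4 shared genes at each end of the tissue difference. Members of 29 gene lists, of 13 marker lists and these rules were chosen with earlier results of these data known. Lists were counted and not tested. Promoter windows are from RefSeq (GRCm38.p6), gene positions and exon overlaps from an annotation of mm9. No coordinate was converted. Some genes, 1 of the 6 cortex-limited falls among them, are not reported here, and counts include them. Other fits and the pools left out are given with the closing section.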

Additional observations from a re-analysis of the deposited data

Results flagged for a closer look

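In 44 of the 56 named genes the response to SD differed between the tissues by the test of the difference itself (limma over 12695 genes, adjusted p from 2.9e-26 to 1.6e-07), and 43 of these differences (liver minus cortex, log2) are given here. The genes were named for their place in these classes, so the sizes are descriptive.

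Among genes that rose in liver and fell in cortex the values were Mycl 1.53, Cln6 1.32, Rasgef1b 1.28, Slc41a3 1.21, Gm129 1.02 and Adamtsl2 1.21. Among those that fell in liver and rose in cortex they were Cml5 -2.44, Impg2 -2.07, Fst -1.53, 2310003H01Rik -1.41, Rbm3 -1.51 and Maml3 -1.61. The difference had the same sign in 34 to 39 of 39 pools over these 12.

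Cortex-limited rises had differences of Tm6sf2 -1.69, Nr4a1 -1.39, Sik1 -1.59, Dok3 -1.33, Egr1 -1.13 and Cyr61 -1.18, and cortex-limited falls 1700001L05Rik 1.58, C7 1.14, Tacc3 0.75, Pole 1.02 and Pipox 0.85. Liver-limited rises had Ttll8 2.89, Eif4ebp3 1.15, Shh 1.07, Slc25a30 0.96, Map10 0.91 and Lpin1 0.85, and liver-limited falls Tnfaip8l3 -1.54, Lrrc16a -1.44, Zfp618 -1.47, Slc1a4 -1.21, Snhg11 -1.15 and Gria3 -1.04.

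Genes called with the same sign in both tissues were flagged where the sizes differed, with Nat14 1.39, Rad51c 1.39, Zbtb16 1.38 and Fam107a 1.33 on the side of liver and Herc3 -1.89, D130043K22Rik -1.66, Plin4 -1.47 and Fos -1.2 below 0.

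In the 4 BXD/TyJ pools 2 of the 56 genes had 1 pool far from the other 3. For Gm129 it was at 0.059 and the mean of the 4 at 1.19, and for Herc3 at -1.46 with a mean of -2.38. Chance gives such a flag in about 1 of 20 genes.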

How the results depend on the processing

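The fit without the replicate block, which drops the pairing of libraries within a pool, called 6067 tissue differences in place of 7312. It moved 3 classes by over 1.5 times: shared with a larger change in liver to 525, opposite to 1059 and liver-limited to 1776, from 1071, 1648 and 1155. The tissue difference was called for 7315 genes without a variance trend, 7290 with median-centred libraries, 7474 after quantile normalization, 7528 on log2(CPM + 1), 6898 among genes with a mean of at least 0 log2 CPM, 7709 with all 43 pools, 6880 in the 33 BXD/RwwJ lines, 7012 with the pools of a parental strain, of the F1 crosses and of substrains averaged, 7106 without the smaller pools (BXD79, BXD85, BXD101) and 7458 with voom weights on the recovered reads within pools. Leaving out 1 pool in turn gave 7208 (without BD, an F1 pool) to 7528 (without BXD70). The pools without BXD70 and BXD89, a choice made after the data were seen, gave 7529.

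Of 2856 refits of the named genes 2849 kept their side of the threshold without a called change of sign; in 29 of them an uncalled difference changed sign (Map3k6, Spata24 and Neurl2). On log2(CPM + 1) Hspb1 turned from -0.093 to 0.29 and Lyve1 from -0.091 to 0.34, and Accs (4 fits) and Nmnat3 (1 fit) passed the threshold. In all 348 refits of the 29 lists (leave-one-out not among them) the median tissue difference moved by less than 1 SD over pools. The cause of these changes was not tested, except that log2(CPM + 1) shrinks values near the floor by its construction.

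Liver libraries held fewer reads counted in listed genes than cortex libraries, and a change that was not called in a tissue is not shown to be absent. Of 23 tissue-limited genes named, 9 were called in the other tissue under 1 or more alternatives, as given with each. The tissue difference of 7 called genes fell by over 1.5 times on log2(CPM + 1), and all 7 stayed called. Each condition of a line is 1 library per tissue, so the spread within a line is unknown. The p values rest on the spread over pools, in which genotype, mice and library are not separated. Intervals do not cover the choice of genes by these same values.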

Other observations

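Lists not described above gave the following counts, with changes given for cortex first and liver second. Of 27 interferon-stimulated and MHC class I genes 14 had a higher and 6 a lower response in liver, and the median change was -0.13 in cortex and -0.013 in liver. Genes that load peptides on MHC class I were among them: Tap1, the peptide transporter, changed by -0.55 and 0.075, Psmb9, a subunit of the immunoproteasome, by -0.57 and -0.14, and H2-K1 by -0.27 and 0.036 (adjusted p in liver = 0.21). Irf9, of the interferon response complex, rose in both, by 0.60 and 0.23. Of 29 genes of collagens, laminins and matrix 11 had a higher and 7 a lower response in liver. Timp1, an inhibitor of matrix proteases, rose by 1.77 in cortex against 0.24 in liver (adjusted p = 0.32), Lama4, a laminin of vessels, was opposite at -0.53 and 0.31, and Col15a1 fell by 0.14 and 0.91.

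Of 23 amino acid transporters 3 had a higher and 10 a lower response in liver. Beside Slc1a4, its relative Slc1a5 was opposite (0.22 and -0.70), as was Slc7a5, the exchanger of large neutral amino acids (0.059 and -0.44). Of 29 autophagy genes 13 had a higher and 7 a lower response in liver, with Wipi1 opposite (-0.19 and 0.25) and Atg14 up in both (0.069 and 0.41). Of 20 histone genes the counts were 8 and 6, and Hist1h1e, a linker histone, rose by 1.11 and 2.25, and of 21 genes of replication and division they were 5 and 7, with Ccnd1, the cyclin of growth factor response, opposite at 0.40 and -0.62. Among 8 genes of osmolyte uptake they were 2 and 2, and Slc5a3, the myo-inositol transporter, rose by 0.93 and 1.53. Among 12 metallothioneins and targets of Nrf2 they were 3 and 4, with Srxn1 and Nfe2l2 itself opposite (0.19 and -0.31, 0.21 and -0.099).

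Of the 13 lists of cell type markers, those of B cells, Kupffer cells and neutrophils had no member listed in both tissues. Among the members tested, the response was higher in liver for 1 and lower for 3 of 6 astrocyte markers and likewise of 6 microglia and macrophage markers, 0 and 3 of 5 oligodendrocyte markers, 2 and 1 of 8 endothelial markers, 3 and 0 of 5 stellate and mural markers, 0 and 1 of 3 neuronal markers, 0 and 1 of 3 choroid plexus markers, 0 and 1 of 2 markers of T and NK cells, and 0 of the single hepatocyte and erythroid markers. In cortex 5 of 8 endothelial markers fell and 2, Pecam1 and Flt1, rose (by 0.17 and 0.14), with a median change of the list of -0.18, against 0.0064 in liver, and their summed level ran from 7.62 to 8.26 log2 CPM in cortex Ctr and from 7.57 to 7.99 in SD. The part of vessel cells in the falls of Lama4 and of the collagens in cortex was not tested.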
